A study of Mus musculus with 2 samples.

Results

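The 29 genes of the Hoxa, Hoxb, Hoxc and Hoxd clusters described here were taken by symbol from the single-cell count tables of sympathetic ganglia of the mouse, the celiac and the superior mesenteric ganglion. All 29 were found among the 32183 genes of the tables, and each had at least 1 count in a cell. Their levels were measured in neurons, satellite glia, Schwann cells, fibroblasts, mural cells, endothelial cells and immune cells, and also in perineurial cells, with classes set by markers other than Hox genes. The study holds 1 group: cells of digested ganglia in 2 libraries made with 10x Genomics 3' chemistry, with no treatment or mutation named in the labels. The study used 20 mice of 7 to 8 weeks, with both sexes in equal number; neither the strain nor the animals behind each library could be taken from the labels. Library 1 summed to 94521010 and library 2 to 95235439 unique molecular identifiers (UMIs). Each UMI stands for 1 captured RNA molecule. P-values below measure only the spread left between these libraries after a term for the library, which may be technical. The estimate of this spread draws largely on other genes.

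Hox genes encode homeodomain transcription factors that lie in clusters in the order in which they are switched on along the body axis, so that low-numbered (anterior) genes mark the hindbrain and neck and high-numbered (posterior) genes mark the trunk and tail. Genes of the same number in different clusters, such as Hoxb4, Hoxc4 and Hoxd4, are paralogs that arose by duplication of an ancestral cluster. Neurons and glia of sympathetic ganglia derive from the neural crest, whereas the endothelium, the mural cells and the fibroblasts of the trunk derive mostly from mesoderm, and Polycomb and Trithorax proteins keep the embryonic Hox pattern in the cells that descend from each source. Hox proteins bind DNA with cofactors of the TALE family, the Pbx, Meis and Pknox proteins, and retinoic acid and the Cdx proteins switch Hox genes on in the embryo.

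The promoters of the group 4 paralogs are shown because these genes, although they carry the same number, were highest in different cell classes: Hoxb4 and Hoxd4 in endothelial cells and Hoxc4 in neurons. Each window runs from 250 bases before a start of the gene given by RefSeq to 50 bases after it, on the plus strand of GRCm38.p6. The windows are chr11:96318017-96318316 for Hoxb4, chr15:103034145-103034444 for Hoxc4 and chr2:74721728-74722027 for Hoxd4. The last lies within the GENCODE M21 spans of both Hoxd3 and Hoxd4, so its start is not the first start of Hoxd4 in that annotation. Capitals mark matches to AGGTCA, the core site bound by retinoic acid receptors, which reads TGACCT on this strand, and to TTTATG, a motif of Cdx proteins.
Hoxb4: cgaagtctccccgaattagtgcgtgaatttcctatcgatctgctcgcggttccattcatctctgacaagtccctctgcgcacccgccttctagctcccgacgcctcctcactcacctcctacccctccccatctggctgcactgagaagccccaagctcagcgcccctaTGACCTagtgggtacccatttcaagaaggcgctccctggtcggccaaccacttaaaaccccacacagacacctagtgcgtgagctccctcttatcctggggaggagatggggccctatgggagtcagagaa
Hoxc4: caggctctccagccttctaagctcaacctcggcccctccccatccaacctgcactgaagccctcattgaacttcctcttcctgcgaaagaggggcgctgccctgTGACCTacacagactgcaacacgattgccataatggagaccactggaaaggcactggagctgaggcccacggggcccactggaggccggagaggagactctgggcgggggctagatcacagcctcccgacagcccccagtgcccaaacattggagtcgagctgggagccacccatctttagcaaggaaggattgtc
Hoxd4: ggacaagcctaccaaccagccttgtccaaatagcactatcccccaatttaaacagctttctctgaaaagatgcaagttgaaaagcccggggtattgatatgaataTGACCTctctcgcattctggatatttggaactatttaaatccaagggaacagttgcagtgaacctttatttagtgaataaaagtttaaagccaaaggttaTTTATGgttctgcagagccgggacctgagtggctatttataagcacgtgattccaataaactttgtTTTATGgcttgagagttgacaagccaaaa
The core site was matched once in each window, at bases 170 to 175 of Hoxb4, 105 to 110 of Hoxc4 and 106 to 111 of Hoxd4. The Cdx motif was matched only in Hoxd4 among these 3, at bases 206 to 211 and 272 to 277. Of the 18 promoter windows that RefSeq gave for 17 of the 29 Hox genes, 7 held the core site and 4 the Cdx motif on either strand, while 16.3% and 11.9% of all 32851 promoter windows of this length did. The Hox-Pbx motif TGATNNAT was in 3 of the 18 Hox windows and in 8.85% of all windows, and the Meis motif TGACAG was in 2 of the 18 and in 19.2% of all. Neither of these was in the 3 windows printed. These are matches of letters and not measured binding.

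The cells were sorted into classes after doublet removal, which left 12030 and 11646 cells, without using any Hox gene. Names of cell types stand for cells like those types by their markers. There were 129 and 128 neurons, 2674 and 2615 satellite glia, 2233 and 2074 Schwann cells, 2259 and 2292 fibroblasts, 610 and 608 mural cells, 1012 and 911 endothelial cells, 1566 and 1623 immune cells and 729 and 638 perineurial cells in libraries 1 and 2. Of the barcode sequences, 64 occurred in both libraries. Summed levels of the 17 neuron markers were 23936 and 24044 CPM (counts-per-million of all UMIs of a class) in neurons and 2205 to 4322 CPM in the other classes, so RNA of neurons was found in cells of every class. None of these markers was among the 10 leading genes of the neuron clusters that were kept, where genes were ranked against other neuron-like cells only. Ptprc, the leukocyte antigen CD45, was at 518 ± 41.4 CPM (SD, n = 2 libraries) in immune cells and at means of 1.40 to 3.71 CPM in the other named classes. Glial classes shared markers: Fabp7, a satellite glia marker, was at 6868 ± 535 CPM in satellite glia and 1605 ± 195 CPM in Schwann cells. Immune cells, the class with the lowest Hox sum, served as the level against which low counts were read, and how much of their Hox RNA was free RNA was not tested. Set apart from these classes were 99 and 67 cells of high-UMI neuron-like clusters led by markers of other cells. Low-UMI neuron-like droplets, described below, were also set apart, whatever markers led them.

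Some Hox genes cannot be told apart fully. In the GENCODE M21 annotation on GRCm38, Hoxd3 (chromosome 2, 74711927 to 74748442) and Hoxd4 (chromosome 2, 74711929 to 74729160) share exons on the same strand, as do Hoxc5 (chromosome 15, 102967443 to 103017429) and Hoxc10 (chromosome 15, 102966796 to 102971893). Exons of Hoxb2 and Hoxb3 overlap the antisense gene Hoxb3os, those of Hoxb5 overlap Hoxb5os, those of Hoxa3 and Hoxa7 overlap Hoxaas3, and those of Hoxd3 and Hoxd4 overlap Hoxd3os1. The use of strand and of intron reads in the counting is not stated in the labels, so the split of counts among these genes is uncertain. Levels are in CPM of the class and library. With 1 UMI counted per captured 3' end they would not scale with transcript length, but this need not hold if intron reads were counted. Log2 fold changes use edgeR's TMM scaling, which moves them against plain ratios of CPM by -0.23 for neurons against satellite glia, -0.36 for neurons against fibroblasts and 0.21 for immune against endothelial cells, and by 0.15 or less in size elsewhere.

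The classes differed in the amount of Hox RNA and in the mixture of clusters that it came from. The summed level of the 29 genes was 661 and 673 CPM in endothelial cells, 493 and 487 CPM in mural cells, and 389 and 383 CPM in perineurial cells. It was 292 and 289 CPM in fibroblasts, 250 and 218 CPM in neurons, 188 and 183 CPM in satellite glia and 159 and 166 CPM in Schwann cells. Immune cells had 35.5 and 35.0 CPM, the lowest sum in both libraries. No class overlapped another in this sum, over the 2 libraries. The order of the classes is a description, since classes differ in depth, from a median of 3968 UMIs per Schwann cell to 21730 per neuron in library 1.

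**Figure D1:**
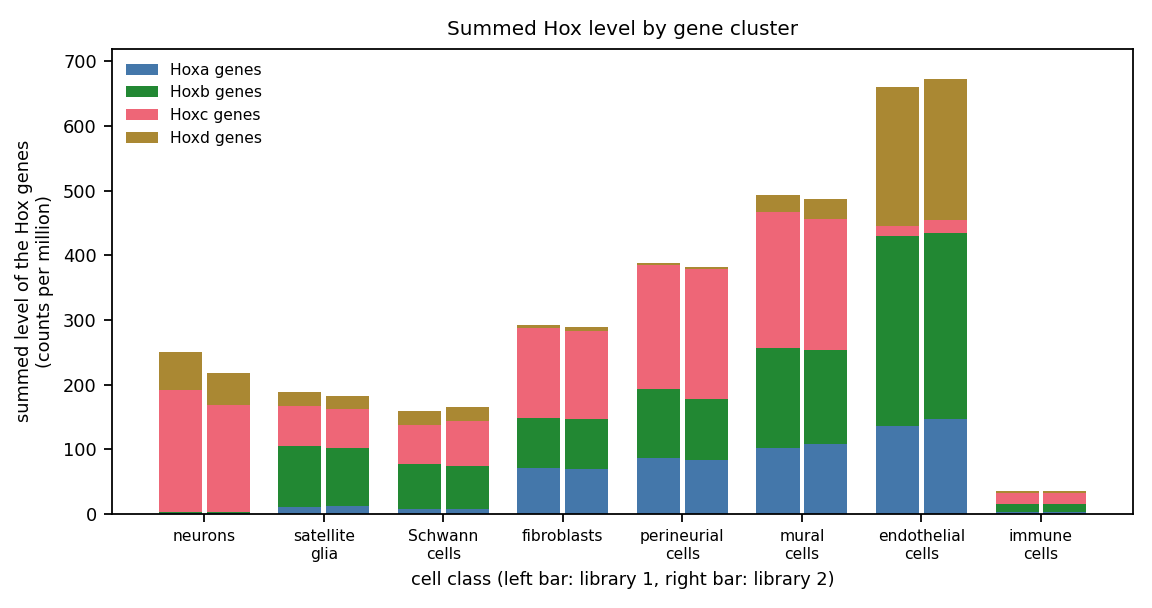
Summed level of the 29 Hox genes in CPM (vertical axis, from 0) in each of 8 cell classes (horizontal axis), with the left bar of a pair for library 1 and the right bar for library 2. Colours stand for the Hoxa, Hoxb, Hoxc and Hoxd clusters: neurons hold almost only Hoxc and Hoxd counts, and endothelial cells hold few Hoxc counts beside 291 CPM of Hoxb.

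Neurons drew 75.5% and 76.2% of their Hox UMIs from the Hoxc cluster and 23.4% and 22.5% from the Hoxd cluster, while their Hoxa and Hoxb genes summed to 1.38 ± 0.035 and 1.38 ± 0.035 CPM (SD over the 2 libraries). Satellite glia had 91.8 ± 3.28 CPM of Hoxb, 61.7 CPM of Hoxc, 20.9 CPM of Hoxd and 11.2 CPM of Hoxa. Endothelial cells had 291 CPM of Hoxb, 217 CPM of Hoxd and 141 CPM of Hoxa but 18.4 CPM of Hoxc, next to 17.7 CPM of Hoxc in immune cells. Fibroblasts, perineurial and mural cells had their largest share from Hoxc, at 138, 196 and 207 CPM, and had 70.0 to 105 CPM of Hoxa. Perineurial cells and fibroblasts had the least Hoxd apart from immune cells, with 3.9 and 5.4 CPM.

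**Figure D2:**
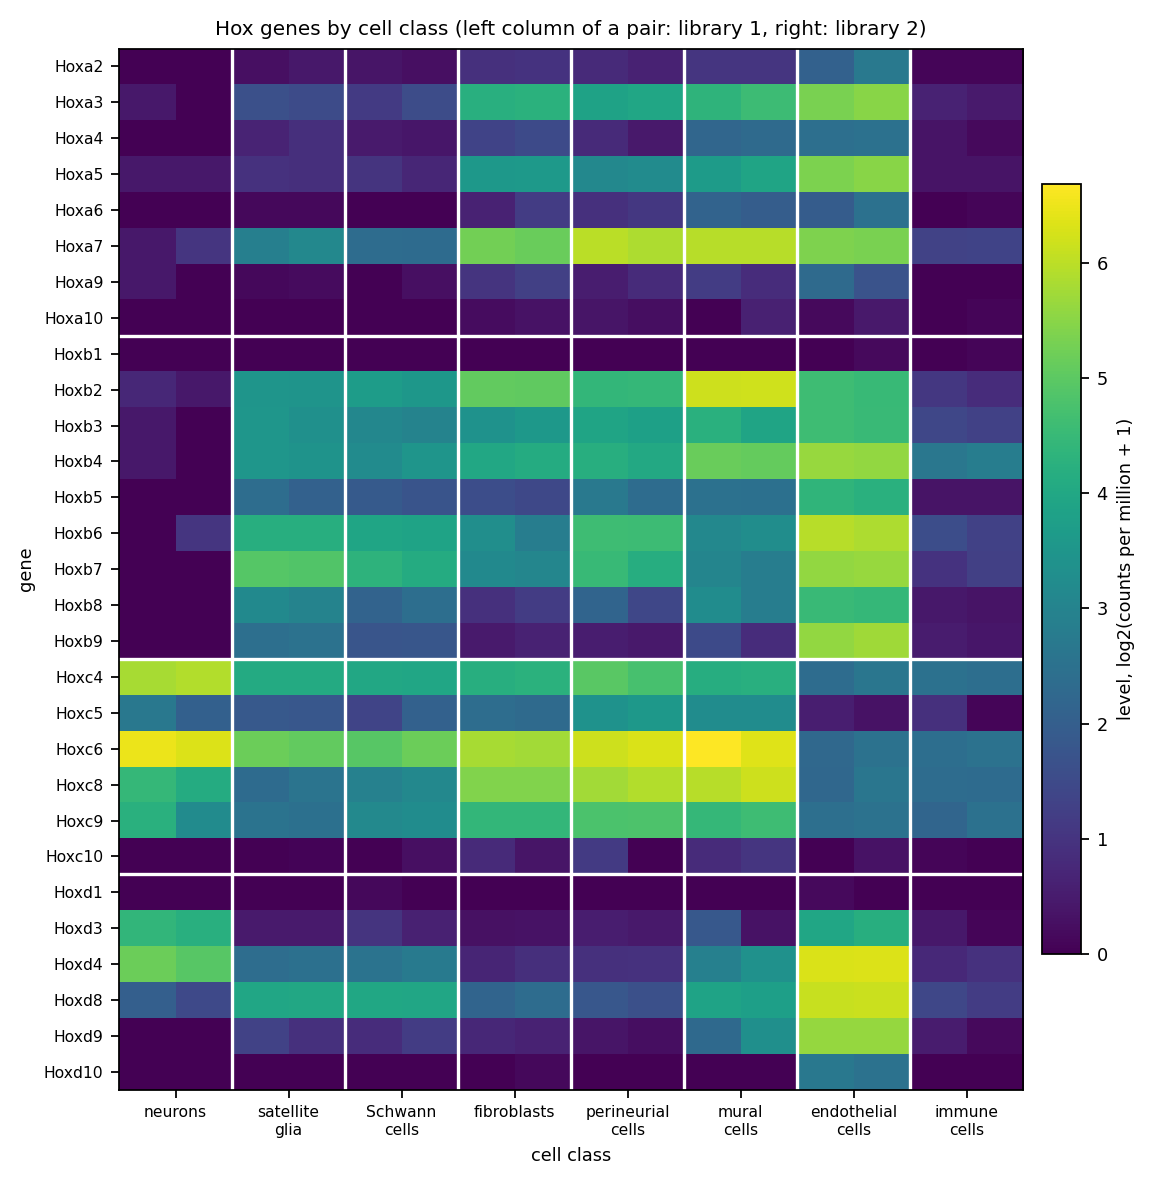
Level of each of the 29 Hox genes (rows) in 8 cell classes (paired columns, library 1 on the left and library 2 on the right), as log2(CPM + 1) in colour. Neurons are at or near 0 over the whole Hoxb block, and endothelial cells are at the immune level over the Hoxc block.

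By single genes, endothelial cells had the highest level of 19 of the 29 genes, mural cells of 6, neurons of Hoxc4 and Hoxd3, and perineurial cells of Hoxc5 and Hoxc9. The 19 include Hoxb1 and Hoxd1, each with 1 UMI in endothelial cells. The 6 include Hoxa10 and Hoxc10, with 2 and 7 UMIs in mural cells. How many of all genes were highest in each class is not given here, so these counts are a description. For 7 of the 29 genes (Hoxa6, Hoxa7, Hoxa10, Hoxb1, Hoxc6, Hoxc10 and Hoxd1) the libraries of the highest class overlapped those of the class next to it in order. Hoxc6, for example, was at 102 and 81.3 CPM in mural cells and at 89.3 and 79.3 CPM in neurons. Counting the genes whose 95% Poisson interval lay above that of the immune cells in both libraries gave 5 of 29 in neurons, 15 in satellite glia, 13 in Schwann cells, 18 in fibroblasts, 14 in perineurial cells, 20 in mural cells and 20 in endothelial cells. These intervals cover counting error only and are wider in classes with fewer UMIs. Neurons had 2955344 and 2849791 UMIs in all, and satellite glia 20023616 and 19988057. The counts therefore depend on the UMIs of a class and do not rank the classes. A like count over all genes is not given here. Of the 29 genes, 25 passed the filter on low counts; Hoxa10, Hoxb1, Hoxc10 and Hoxd1 did not, and none of these 4 exceeded a mean of 0.92 CPM in any class. In the fit over all 8 classes each of the 25 genes tested differed among the classes (edgeR quasi-likelihood test, Benjamini-Hochberg adjusted p of 1.22e-08 at most, for Hoxa9), and so did 98.0% of the 18276 genes tested.

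In the cells kept as neurons, Hox RNA came mostly from anterior and middle genes of the Hoxc and Hoxd clusters. The highest was Hoxc6, a gene of the middle group of the cluster that is associated with the forelimb and upper trunk level, at 89.3 CPM in library 1 and 79.3 CPM in library 2. Hoxc4 followed at 54.8 and 59.0 CPM, then Hoxd4 at 35.5 and 29.8 CPM, Hoxd3 at 20.0 and 17.5 CPM and Hoxc8 at 20.98 and 16.14 CPM. Hoxc4 was higher in neurons than in any other class, with no overlap of libraries. Hoxd3 was highest there too, but endothelial cells were close, at 14.6 and 17.1 CPM. The 95% Poisson intervals of Hoxd3 in these 2 classes overlapped in both libraries. No test was run between neurons and endothelial cells. Hoxb7 (chromosome 11, 96286623 to 96290162) had no UMI in the 257 neurons, nor had Hoxb5, Hoxb8, Hoxb9, Hoxa2, Hoxa4, Hoxa6, Hoxd9 or Hoxd10. A count of 0 allows a level of up to 1.02 CPM in library 1 and 1.05 CPM in library 2, that of 3 UMIs. Hoxc9, a posterior gene, differed between the libraries of neurons, with 17.9 and 8.42 CPM, and did not exceed the immune interval in both. In the high-UMI neuron-like clusters led by markers of other cells, Hoxc9 was at 33.2 and 36.2 CPM.

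Satellite glia, which wrap the same neurons and share their neural crest origin, differed from them in 19 of the 25 genes tested. In this comparison 6 were higher in neurons and 13 were lower, while 70.7% of all genes tested were called, 35.1% higher and 35.7% lower. The share of Hox genes called, 76.0%, was thus near that of all genes. Hoxd3 was 0.40 and 0.40 CPM in satellite glia, against 20.0 and 17.5 CPM in neurons, which is 5.28 higher on the log2 scale (SE 0.35, edgeR adjusted p 4.94e-15). Hoxd4 was at 4.25 and 4.503 CPM in satellite glia and higher in neurons by 2.67 (SE 0.16) on the log2 scale. The other Hoxc genes of the neurons rose less: Hoxc8 by 1.82 (SE 0.19), Hoxc4 by 1.60 (SE 0.11), Hoxc9 by 1.27 (SE 0.23) and Hoxc6 by 1.08 (SE 0.10), and Hoxc5 was not called (log2 0.51, SE 0.42). All 8 Hoxb genes tested were lower in neurons. Hoxb7 was at 29.2 and 28.2 CPM in satellite glia, which makes it at least 55.5-fold lower in neurons when their count of 0 is set at 3 UMIs over both libraries. By the same bound Hoxb8 was at least 14.6-fold lower, Hoxb9 8.85-fold and Hoxb5 7.21-fold; the calls of Hoxb9 and Hoxb5 ended with cells thinned to 1500 UMIs (edgeR adjusted p 0.099 and 0.13). Hoxb6 had 3 UMIs in neurons and 693 in satellite glia, a ratio of 33.5 with an exact 95% interval of 11.4 to 163. Hoxa3, Hoxa4, Hoxa7, Hoxd8 and Hoxd9 were also lower, and Hoxa2, Hoxa5, Hoxa6, Hoxa9 and Hoxd10 were not called. Hoxa4 and Hoxd9 had no UMI in neurons, with bounds of 1.40-fold and 2.32-fold. The median log2 fold change was -3.56 over the 25 genes, or -1.22 with the 9 genes at 0 UMIs in neurons set at their bound, or at 0 where no bound could be given, beside -0.03 over all genes tested.

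**Figure D3:**
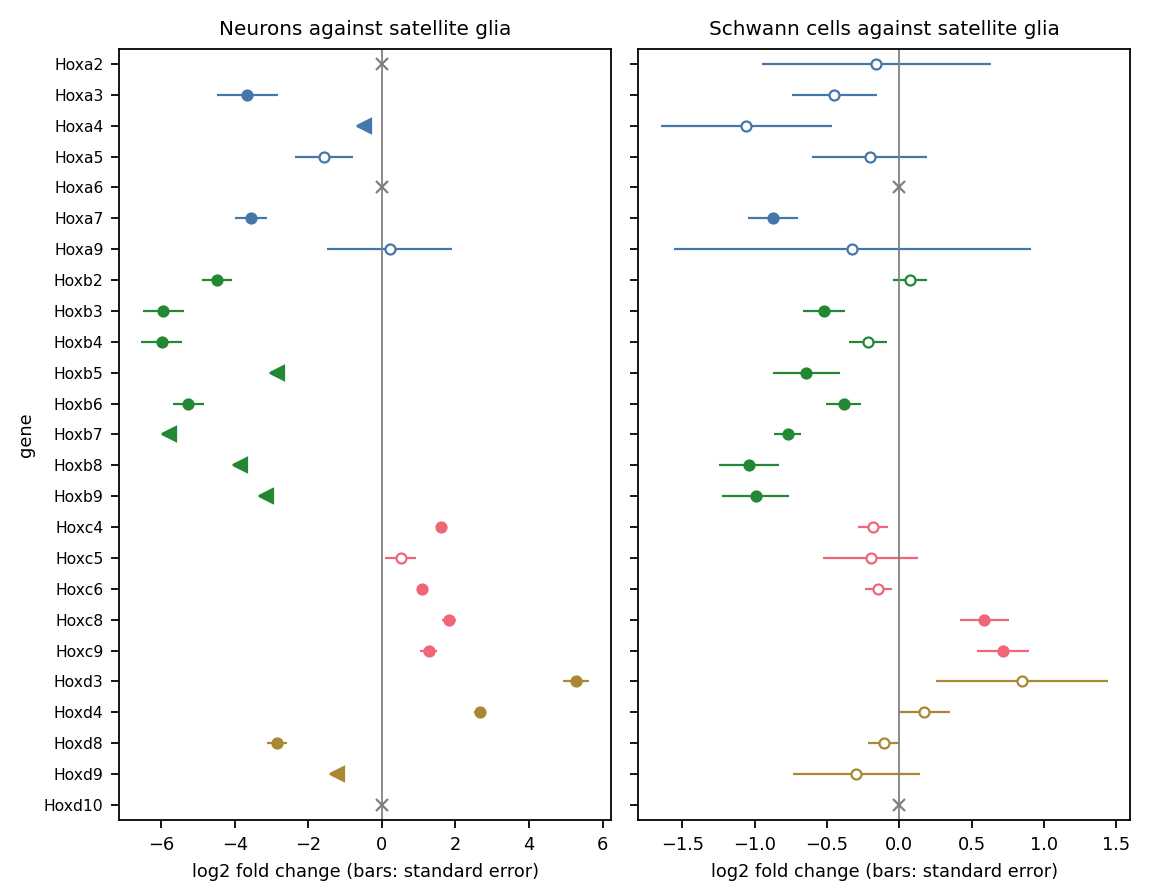
Log2 fold changes (horizontal axis, points with the standard error of the fit) of the 25 Hox genes tested, for neurons against satellite glia on the left and Schwann cells against satellite glia on the right, on different scales. Filled symbols mark genes called at an adjusted p under 0.05, triangles mark bounds for genes with no UMI in the first class, and crosses mark genes with no UMI in both classes or with a bound that is no fold. All 8 Hoxb genes tested lie below 0 in neurons, and 2 genes, Hoxc8 and Hoxc9, are called higher in Schwann cells.

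Against fibroblasts, 4 of the 25 genes were higher in neurons and 19 lower, with 74.6% of all genes called, 36.8% higher and 37.8% lower. The 4 were Hoxd3 (0.22 and 0.26 CPM in fibroblasts, log2 5.85, SE 0.39), Hoxd4 (0.61 and 0.88 CPM, log2 5.07, SE 0.22), Hoxc4 (17.1 and 18.1 CPM, log2 1.33, SE 0.11) and Hoxc6. Hoxc6 was at 55.5 and 52.7 CPM in fibroblasts and the call of 0.28 (SE 0.10, adjusted p 0.010) was lost with doublets kept (log2 0.16, adjusted p 0.16), with all neuron-like cells (0.07, adjusted p 0.48) and with cells thinned to 1500 UMIs (0.02, adjusted p 0.98). Hoxc8 and Hoxc9, higher in neurons than in satellite glia, were lower than in fibroblasts, with log2 fold changes of -1.51 (SE 0.13) and -0.99 (SE 0.18). Hoxb7 was at 8.00 and 7.42 CPM in fibroblasts and at least 14.9-fold lower in neurons, Hoxb5 at least 3.58-fold and Hoxa4 at least 3.27-fold lower, and the call of Hoxb5 ended with thinned cells (adjusted p 0.27). By the same bound Hoxb8 was at least 2.13-fold lower, Hoxa2 and Hoxa6 1.82-fold and Hoxd9 1.19-fold. Hoxb9 was called lower with a bound of 0.93, which is no fold. Hoxa3, a gene of the hindbrain and neck level, had 1 UMI in neurons and 671 in fibroblasts, a ratio of 104 with an interval of 18.7 to 4132. The median over the 25 genes was -5.44, or -1.09 with the 9 genes at 0 set at their bound, beside -0.06 over all genes.

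A set of 637 and 613 droplets had neuron markers but few UMIs (median 1940 and 2014 per droplet) and was kept apart from the neurons. Some of its sub-clusters were led by markers of other cells as well. Leading genes included the mast cell marker Mcpt4 in 674 droplets, and Acta2, Tagln and Myh11 of mural cells in 130. Neuron marker RNAs were high in the set, with Npy, a sympathetic neuropeptide, at 6226 ± 217 CPM against 1386 ± 192 CPM in neurons. The nuclear RNA Malat1 was at 9199 ± 263 CPM against 76351 ± 359 CPM. These droplets had another order of Hox genes. Hoxc8 was at 68.7 and 77.4 CPM, 3.28 and 4.80 times its level in neurons, and Hoxc9 at 50.4 and 65.2 CPM, 2.81 and 7.74 times. Hoxd4 was at 0.0766 and 0.205 times its level in neurons, and Hoxd3 at 0.102 and 0.155 times. Hoxc6 and Hoxc4 lay at 0.472 to 0.933 times. The part of UMI number and Malat1 in these differences was not tested. RNA of other cells was present as well, and its part was not tested either. The 9 satellite glia markers summed to 4862 and 4857 CPM in the droplets and to 429 and 372 CPM in neurons. The 9 mural markers summed to 570 and 216 CPM in the droplets and to 51.4 and 21.8 CPM in neurons. Mural cells had Hoxc8 at 61.9 and 71.0 CPM.

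**Figure D4:**
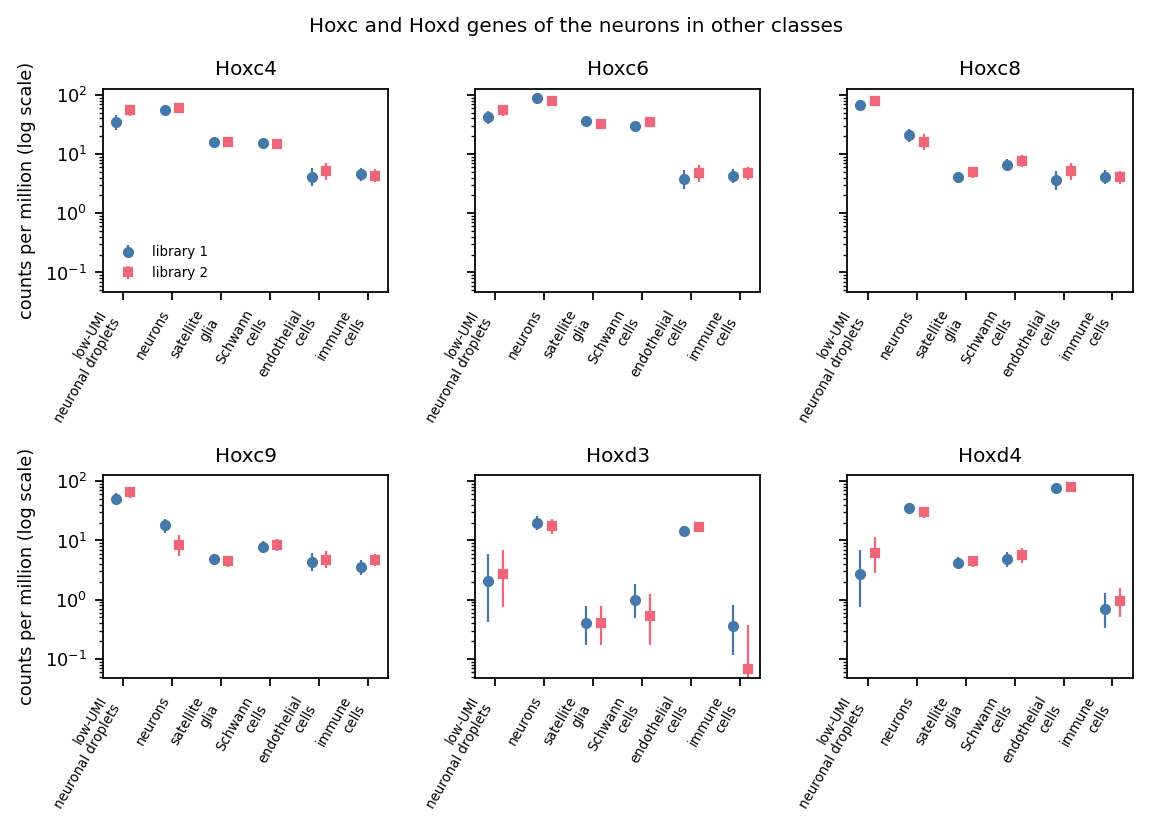
Levels in CPM (log scale) of the 6 Hox genes called higher in neurons than in satellite glia, in 6 classes (horizontal axis), with circles for library 1, squares for library 2 and bars for the exact 95% Poisson interval. Hoxc8 and Hoxc9 are highest in low-UMI neuron-like droplets, Hoxd3 and Hoxd4 are low there, and the 4 Hoxc genes lie between 3.53 and 5.13 CPM in endothelial and immune cells.

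The neurons fell into a population rich in Rxfp1, a receptor of the relaxin family (66 and 63 cells), and one rich in Shox2, a homeobox factor (63 and 65 cells). Rxfp1 was at 373 and 318 CPM in the former and 81.8 and 62.0 CPM in the latter, Shox2 at 4.97 and 4.55 against 150 and 92.0 CPM; both genes were left out of the clustering and used to name the populations. Hoxc6 was at 112 and 94.9 CPM in Rxfp1-rich and at 61.7 and 65.9 CPM in Shox2-rich neurons, without overlap (log2 0.78, SE 0.16, adjusted p 8.68e-04, edgeR). Hoxd4 was at 44.1 and 39.5 CPM against 25.3 and 21.5 CPM (log2 0.92, SE 0.23, adjusted p 0.0069). These 2 of 6 genes were called higher and none lower, with 14.9% of the 11019 genes tested called, 8.07% higher and 6.86% lower; at an unadjusted p under 0.05, 3 were higher and none lower, and DESeq2 called none in either direction. Hoxc4, Hoxc8, Hoxc9 and Hoxd3 had log2 values of 0.36 to 0.56 and were not called. The median over the 6 genes was 0.54, beside -0.01 over all genes. Both calls ended with DESeq2 (adjusted p 0.34 for Hoxc6 and 0.74 for Hoxd4), that of Hoxd4 when cells were named on a random draw of the UMIs and tested on the rest (log2 0.67, adjusted p 0.18), and that of Hoxc6 with thinned cells (adjusted p 0.16). Rxfp1-rich neurons had more Malat1 (81397 ± 1561 CPM) than Shox2-rich neurons (70932 ± 3537 CPM), whose part was not tested.

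In satellite glia the 5 highest genes were Hoxc6 (35.6 and 32.5 CPM), Hoxb7 (29.2 and 28.2 CPM), Hoxb6 (17.3 and 17.3 CPM), Hoxc4 (15.8 and 16.1 CPM) and Hoxd8 (14.6 and 15.2 CPM). These 5 genes were also the highest in Schwann cells, with Hoxc6 at 29.9 and 35.4 CPM, Hoxb7 at 19.1 and 16.3 CPM, Hoxc4 at 15.1 and 14.6 CPM, Hoxd8 at 14.7 and 14.5 CPM and Hoxb6 at 14.3 and 13.8 CPM. Of the 25 genes tested, 2 were higher and 7 lower in Schwann cells, with 25.9% of all genes called, 11.8% higher and 14.1% lower. The 7 were Hoxa7 and 6 of the 8 Hoxb genes tested. Hoxb8 was at 3.41 and 4.35 CPM in Schwann cells and 8.04 and 7.00 CPM in satellite glia (log2 -1.04, SE 0.21), and Hoxb9 at 2.41 and 2.44 against 4.44 and 4.70 CPM (-0.99, SE 0.23). Hoxa7 fell by 0.87 (SE 0.17) from 6.39 and 7.70 CPM, and Hoxb7 by 0.77 (SE 0.10). The libraries of the 2 classes did not overlap for any of these 4 genes. Hoxb2 and Hoxb4 were not called, with log2 values of 0.07 and -0.22. Hoxc9 (7.82 and 8.48 against 4.84 and 4.503 CPM, log2 0.72, SE 0.18, adjusted p 0.0023) and Hoxc8 (6.62 and 7.63 against 4.05 and 4.90 CPM, log2 0.59, SE 0.17, adjusted p 0.0088) were higher in Schwann cells. In immune cells these genes were at 3.53 and 4.67 CPM and at 4.16 and 4.07 CPM, and satellite glia did not exceed the immune interval in either gene, nor Schwann cells in Hoxc8. The summed neuron markers were higher in Schwann cells (4222 and 4322 CPM) than in satellite glia (2635 and 2663 CPM), and their part in this difference was not tested. The call of Hoxc8 ended with the counts split for naming and testing (log2 0.27, adjusted p 0.49), with doublets kept (0.29, adjusted p 0.26) and with thinned cells (0.40, adjusted p 0.43), and those of Hoxb9 and Hoxa7 ended with thinned cells. The median over the 25 genes was -0.22, beside -0.01 over all genes.

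Clusters within the glia differed in Hoxb6 and Hoxb7, neighbours on chromosome 11. The values are a description, without a test. In the main satellite glia cluster (cluster 0, 2549 cells, led by Fabp7 and Dbi) Hoxb7 was at 36.3 and 35.3 CPM and Hoxb6 at 13.7 and 13.5 CPM. In cluster 3 (1956 cells, led by Gm31356, Gm48742 and Fras1) the order was turned, with Hoxb7 at 13.2 and 13.2 CPM and Hoxb6 at 27.2 and 25.3 CPM. The Schwann cell clusters repeated this: cluster 5 (1728 cells, led by Gfra3) had Hoxb7 at 23.7 and 23.3 CPM and Hoxb6 at 10.7 and 13.3 CPM, and cluster 1 (2185 cells, led by AC163685.1 and Car10) had Hoxb7 at 15.9 and 9.90 CPM and Hoxb6 at 22.7 and 17.2 CPM. Clusters 3 and 1, where Hoxb6 was above Hoxb7, had more of the nuclear RNA Malat1, at 118840 and 125840 CPM and at 103890 and 107290 CPM, than clusters 0 and 5, at 62887 and 67139 CPM and at 58641 and 63519 CPM. Their cells also had fewer UMIs, with medians of 4910 and 3054 against 9623 and 6013, and a larger mitochondrial share, at 5.40% to 6.16% against 3.28% to 4.60%. The part of these in the turned order was not tested. Cluster 3 is named satellite glia by a small margin, since its satellite and Schwann cell markers were almost equally high relative to the other glial clusters. Without it and cluster 12 (784 cells), which was also close, 6 genes were called between Schwann cells and satellite glia, 2 higher and 4 lower. The share of all genes called in that setting is not given here. Myelinating cells (cluster 17, 394 cells, led by Ncmap and Cldn19) had little of both, with Hoxb6 at 1.27 and 3.38 CPM and Hoxb7 at 2.53 and 1.13 CPM, but Hoxb2 at 17.7 and 18.0 CPM. For Hoxb7 that is near the immune level of 0.99 and 1.40 CPM.

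**Figure D5:**
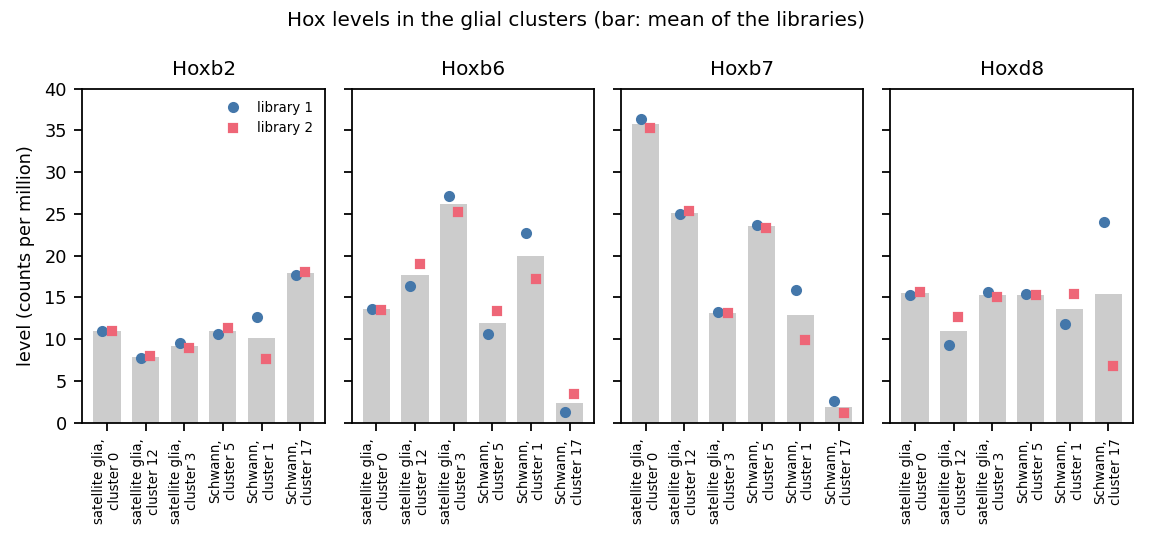
Levels in CPM (vertical axis, from 0) of Hoxb2, Hoxb6, Hoxb7 and Hoxd8 in 3 satellite glia clusters and 3 Schwann cell clusters, with circles for library 1, squares for library 2 and bars for their mean. Hoxb7 is above Hoxb6 in clusters 0, 12 and 5, below it in clusters 3 and 1, and both are low in the myelinating cluster 17.

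Compared with fibroblasts, satellite glia had 7 of the 25 genes higher and 14 lower, with 63.4% of all genes called, 31.5% higher and 31.9% lower. The 7 higher genes were Hoxb5 to Hoxb9, Hoxd4 and Hoxd8. Hoxb9 was at 4.44 and 4.70 CPM in satellite glia and 0.39 and 0.57 CPM in fibroblasts (log2 3.09, SE 0.28), and Hoxb8 at 8.04 and 7.00 against 0.89 and 1.30 CPM (2.63, SE 0.23). Hoxd4 was higher by 2.40 (SE 0.24) and Hoxd8, at 14.6 and 15.2 against 3.44 and 4.10 CPM, by 1.85 (SE 0.12). All 7 Hoxa and all 5 Hoxc genes tested were lower in satellite glia. Hoxa5 was at 0.95 and 0.85 CPM against 10.9 and 11.1 CPM (-3.72, SE 0.19), Hoxc8 at 4.05 and 4.90 against 41.5 and 41.4 CPM (-3.33, SE 0.10) and Hoxa3 at 2.10 and 1.90 against 17.7 and 18.3 CPM (-3.29, SE 0.14). Hoxa9 fell by 3.28 (SE 0.62) from 0.9994 and 1.40 CPM. The median was -0.79, beside 0.00 over all genes. Hoxb3, Hoxd3, Hoxd9 and Hoxd10 were not called.

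Fibroblasts had Hoxc6 at 55.5 and 52.7 CPM, Hoxc8 at 41.5 and 41.4 CPM, Hoxa7 at 37.5 and 34.7 CPM, Hoxb2 at 32.8 and 32.1 CPM and Hoxc9 at 20.4 and 20.6 CPM as their highest genes. Perineurial cells, which form the sheath of the ganglion, had 4 of these 5 genes among their 5 highest, with Hoxc6 at 71.4 and 78.6 CPM, Hoxa7 at 62.8 and 57.0 CPM, Hoxc8 at 52.6 and 58.9 CPM, Hoxc4 at 30.2 and 25.5 CPM and Hoxc9 at 26.6 and 27.2 CPM. No test was run on perineurial cells. Among the fibroblast clusters, cluster 10 (838 cells, led by C7 and C3) had the most Hoxa5, at 23.1 and 23.1 CPM against 4.29 to 14.2 CPM in the others, and Hoxa3 at 29.99 and 35.0 CPM. Its Hoxb2 was at 16.9 and 19.1 CPM, below the 42.3 and 39.0 CPM of the largest cluster 2.

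Mural cells, the pericytes and smooth muscle around vessels, had 15 of the 25 genes tested at a higher level than fibroblasts. Their highest genes were Hoxc6 (102 and 81.3 CPM), Hoxb2 (71.8 and 72.3 CPM), Hoxc8 (61.9 and 71.0 CPM), Hoxa7 (61.9 and 61.2 CPM) and Hoxb4 (34.6 and 33.5 CPM). None of the 25 was lower than in fibroblasts and 10 were not called, with 48.0% of all genes called, 22.4% higher and 25.7% lower. At an unadjusted p under 0.05 edgeR gave 16 higher and none lower, and DESeq2 gave 13 higher and none lower. Hoxd4 was at 6.45 and 9.50 CPM against 0.61 and 0.88 CPM (log2 3.24, SE 0.31), and Hoxd9 at 3.87 and 8.97 against 0.67 and 0.57 CPM (3.21, SE 0.41). Hoxb8 was higher by 2.57 (SE 0.33), a call that ended with thinned cells, and Hoxd8, at 13.7 and 12.7 CPM, by 1.65 (SE 0.19). Hoxd3, also called (2.37, SE 0.75), was at 2.58 CPM in library 1 but 0.26 CPM in library 2, beside 0.22 and 0.26 CPM in fibroblasts, so its call rests on library 1. The median over the 25 genes was 0.63, beside -0.03 over all genes. The 2 mural clusters differed in level: Hoxc8 was at 90.1 and 99.2 CPM in the pericyte-type cluster 14 (led by Kcnj8 and Abcc9) and at 47.0 and 54.3 CPM in the smooth muscle-type cluster 13 (led by Acta2 and Myh11), and Hoxb4 at 52.1 and 46.8 against 25.3 and 25.7 CPM. Hoxa7 was alike in both, at 63.3 and 62.4 against 61.2 and 60.6 CPM.

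Endothelial cells exceeded the immune interval in 20 genes of the Hoxa, Hoxb and Hoxd clusters and in none of the Hoxc cluster. Their highest genes were Hoxd4 (78.1 and 79.1 CPM), Hoxd8 (68.2 and 69.7 CPM), Hoxb6 (61.4 and 56.7 CPM), Hoxb9 (47.4 and 52.3 CPM) and Hoxb4 (49.6 and 47.4 CPM). Against fibroblasts 18 of the 25 genes were higher and 6 lower, with 61.3% of all genes called, 31.0% higher and 30.3% lower. Hoxd4 was higher by 6.62 (SE 0.14) on the log2 scale, Hoxb9, at 0.39 and 0.57 CPM in fibroblasts, by 6.59 (SE 0.20), and Hoxd9, at 48.5 and 48.1 against 0.67 and 0.57 CPM, by 6.20 (SE 0.23). Hoxd10, the most posterior Hoxd gene of the set, was at 5.35 and 4.76 CPM with 83 UMIs, against 2 UMIs in fibroblasts, a ratio of 94.3 with an interval of 25.3 to 792; its call ended with DESeq2 (adjusted p 0.34). The lower genes were the 5 Hoxc genes and Hoxb2. Hoxc6 was at 3.803 and 4.76 CPM in endothelial cells against 55.5 and 52.7 CPM (log2 -3.73, SE 0.14), Hoxc5 at 0.48 and 0.25 against 4.22 and 3.99 CPM (-3.52, SE 0.51), Hoxc8 at 3.68 and 5.13 against 41.5 and 41.4 CPM (-3.30, SE 0.13) and Hoxc9 at 4.40 and 4.76 against 20.4 and 20.6 CPM (-2.23, SE 0.16). Hoxa7 was not called (log2 0.09, SE 0.08). The median over the 25 genes was 1.88, beside 0.02 over all genes.

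Endothelial clusters were not all alike, as a description without a test. In the 1779 cells of the main blood vessel cluster 4 (led by Flt1) Hoxb9 was at 49.8 and 53.7 CPM and Hoxa5 at 41.4 and 46.9 CPM. The 65 lymphatic cells of cluster 27 (36 and 29 cells, led by Ccl21a and Mmrn1, with Prox1) had no UMI of Hoxb9, which is at least 8.94-fold lower with 3 UMIs as the floor, and Hoxa5 at 3.36 and 0 CPM. Their Hoxd4, at 57.1 and 90.7 CPM, lay on both sides of the 79.3 and 80.1 CPM of cluster 4. Hoxd10 was at 10.1 and 31.7 CPM in lymphatic cells and 5.3 and 4.2 CPM in cluster 4. Cluster 26 (79 cells, led by Edn1 and Cldn5) had Hoxa7 at 89.5 and 70.2 CPM, against 39.1 and 38.4 CPM in cluster 4, and Hoxd8 at 24.4 and 28.1 against 70.1 and 71.2 CPM.

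Immune cells had low levels of the Hox genes. Hoxb4 was their highest, at 5.22 and 6.14 CPM, followed by Hoxc6 (4.30 and 4.74 CPM), Hoxc4 (4.59 and 4.34 CPM), Hoxc8 (4.16 and 4.07 CPM) and Hoxc9 (3.53 and 4.67 CPM). Against endothelial cells 20 of the 25 genes were lower and none higher, with 60.4% of all genes called, 32.0% higher and 28.5% lower; at an unadjusted p under 0.05 edgeR gave the same counts, and DESeq2 called 19 lower and none higher. Hoxd9 was at 0.42 and 0.13 CPM (log2 -7.20, SE 0.28), and Hoxa5 at 0.28 and 0.27 CPM against 40.5 and 44.4 CPM (-7.02, SE 0.23). Hoxd10 and Hoxa9 had no UMI in immune cells and were at least 49.2-fold and 30.2-fold lower, and the Hoxd10 call ended with DESeq2 (adjusted p 0.23). The 5 genes not called were those of the Hoxc cluster: Hoxc4, Hoxc5, Hoxc6, Hoxc8 and Hoxc9 had log2 values of 0.05 to 0.59 (SE 0.20 to 0.83) and adjusted p-values of 0.31 to 0.87. The median over the 25 genes was -5.33, or -5.11 with the 2 genes at 0 set at their bound, beside 0.04 over all genes.

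Read along the clusters, anterior genes (numbers 1 to 5) and middle genes (6 to 8) held most of the Hox RNA in each class, and genes 9 and 10 held the least. Neurons had 114 ± 5.4 CPM of genes 1 to 5, 107 ± 10.2 CPM of genes 6 to 8 and 13.3 ± 7.0 CPM of genes 9 and 10. Satellite glia leaned to the middle genes, with 60.9 ± 1.7, 114 ± 1.8 and 10.6 ± 0.41 CPM, and Schwann cells did likewise, with 56.5, 94.1 and 11.8 CPM. Endothelial cells had 305 ± 6.0, 251 ± 0.69 and 111 ± 2.2 CPM, the highest level of genes 9 and 10 in these classes.

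Shares of cells with any Hox UMI followed depth as well as class. The share was 94.6% and 91.4% of neurons, 90.6% and 90.1% of endothelial cells, 68.3% and 67.4% of satellite glia, 47.2% and 48.7% of Schwann cells, 81.3% and 80.4% of fibroblasts, 89.3% and 88.8% of mural cells, 83.8% and 83.1% of perineurial cells and 23.6% and 23.7% of immune cells. With each cell thinned to 1500 UMIs these became 33.3% and 26.6% in neurons, 62.1% and 60.3% in endothelial cells, 24.98% and 24.1% in satellite glia, 20.7% and 21.4% in Schwann cells, 33.5% and 33.5% in fibroblasts, 51.1% and 50.2% in mural cells, 38.96% and 41.1% in perineurial cells, and 4.41% and 5.36% in immune cells. Median depths were 21730 and 21661 UMIs in neurons and 8353 and 8433 UMIs in immune cells. Neurons, first of these classes before thinning, came at equal depth after endothelial, mural and perineurial cells and fibroblasts, the last by little in library 1.

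Single Hox cofactors of the TALE family differed between the classes, where 98.0% of all genes tested did so over the 8 classes. Meis1 was at 430 and 518 CPM in neurons against 20.2 and 20.3 CPM in satellite glia (log2 4.32, SE 0.08) and 79.3 and 78.9 CPM in fibroblasts, and 4 of the 9 cofactors were higher and 3 lower in neurons than in satellite glia, beside 70.7% of all genes called. The number of cofactors called in this comparison is near that share. Pknox2 was lower there, at 1.69 and 7.37 against 28.97 and 34.8 CPM (-3.06, SE 0.24). Meis2 was at 194 and 214 CPM in fibroblasts and 239 and 292 CPM in endothelial cells, but at 1.40 and 1.0006 CPM in satellite glia (-7.52, SE 0.12, against fibroblasts) and 1.35 and 2.46 CPM in neurons. Against fibroblasts, 2 cofactors were higher and 6 lower in satellite glia, 3 and 3 in neurons, 2 and 2 in mural cells, and 4 and 5 in endothelial cells, where Pbx3 was at 73.6 and 78.3 against 20.4 and 24.5 CPM (1.69, SE 0.09). Schwann cells had 4 cofactors lower than satellite glia, led by Pbx4 (-0.73, SE 0.21), and none higher, with 1 higher and 4 lower at an unadjusted p under 0.05, and 2 lower and none higher by DESeq2. Immune cells had 3 higher and 3 lower than endothelial cells, led by Meis3 (1.30, SE 0.23) and Meis2 (-4.11, SE 0.09). The shares of all genes called were 63.4%, 74.6%, 48.0% and 61.3% in satellite glia, neurons, mural and endothelial cells against fibroblasts, 25.9% in Schwann cells against satellite glia and 60.4% in immune against endothelial cells. Between Rxfp1-rich and Shox2-rich neurons edgeR called none of the 7 cofactors tested, nor did any pass an unadjusted p under 0.05 or DESeq2.

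Among the non-coding genes of the Hox clusters, 10 of the 18 in the tables were tested. Hoxb3os, which lies antisense to Hoxb2 and Hoxb3, was at 87.6 and 92.0 CPM in satellite glia, 87.8 and 92.6 CPM in mural cells, 24.0 and 21.9 CPM in endothelial cells and 2.71 and 1.05 CPM in neurons. Hotairm1 was at 67.4 and 56.7 CPM in mural cells, 59.7 and 62.1 CPM in endothelial cells and 0.34 and 0 CPM in neurons. Hoxd3os1 was at 53.2 and 48.2 CPM in endothelial cells, 20.0 and 20.4 CPM in neurons and 14.0 and 17.4 CPM in satellite glia. Of the 10, 7 were lower in neurons than in satellite glia, beside 35.7% of all genes called lower and 70.7% called in either direction. In Schwann cells 4 were lower than in satellite glia, beside 14.1% of all genes called lower and 25.9% in either direction. Against fibroblasts, 4 were higher and 4 lower in satellite glia, 1 higher and 7 lower in neurons, 5 higher in mural cells, and 7 higher and 2 lower in endothelial cells. The shares of all genes called in either direction were 63.4%, 74.6%, 48.0% and 61.3% in these 4 comparisons. In mural cells 22.4% of all genes were called higher. All 10 were lower in immune than in endothelial cells, where 28.5% of all genes were called lower.

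Of the regulators of Hox genes, the Polycomb and Trithorax genes moved in both directions in the comparisons of the 8 classes, as did all genes tested. Ezh2, the methyltransferase of Polycomb complex PRC2, was at 204 and 158 CPM in endothelial cells against 38.0 and 34.2 CPM in fibroblasts (log2 2.25, SE 0.08), where 16 of the 30 genes were higher and 5 lower, beside 61.3% of all genes called. Kmt2a, a Trithorax methyltransferase, was at 272 and 289 CPM in neurons against 111 and 122 CPM in satellite glia (1.04, SE 0.06), with 8 higher and 14 lower beside 70.7% of all genes called, and Bmi1, of complex PRC1, was at 4.06 and 6.32 against 19.1 and 19.2 CPM (-2.12, SE 0.24). The number of these genes called between neurons and satellite glia is near the share of all genes. The counts higher and lower were 5 and 1 in Schwann cells against satellite glia, 14 and 8 in satellite glia against fibroblasts, 7 and 10 in neurons against fibroblasts, 11 and 8 in mural cells against fibroblasts and 11 and 12 in immune against endothelial cells, beside 25.9%, 63.4%, 74.6%, 48.0% and 60.4% of all genes called in this order. Among the 26 tested between Rxfp1-rich and Shox2-rich neurons edgeR called none, with 2 higher and 1 lower at an unadjusted p under 0.05, and DESeq2 called none.

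Genes of retinoic acid handling and the Cdx genes gave 17 of 22 tested. Rxrg, a retinoid X receptor, was at 135 and 144 CPM in satellite glia and 1.69 and 0.70 CPM in neurons (log2 -7.07, SE 0.19), where 10 of the 17 were lower and none higher by edgeR beside 35.7% and 35.1% of all genes, with the same counts at an unadjusted p under 0.05, and 8 lower and none higher by DESeq2. Rarb, a retinoic acid receptor, was at 62.4 and 69.7 CPM in satellite glia against 15.6 and 9.12 CPM in neurons and 5.27 and 6.17 CPM in fibroblasts. Aldh1a1, which makes retinoic acid, was in fibroblasts at 172 and 176 CPM against 5.54 and 7.00 CPM in satellite glia (-4.92, SE 0.09), and Cyp26b1, which breaks it down, at 106 and 114 against 1.15 and 1.35 CPM (-6.58, SE 0.11). The counts higher and lower were 5 and 9 in satellite glia, 2 and 14 in neurons, 7 and 7 in mural cells and 5 and 4 in endothelial cells, each against fibroblasts, beside 63.4%, 74.6%, 48.0% and 61.3% of all genes called. Schwann cells had 5 higher and 2 lower than satellite glia (25.9% of all genes called), among them Aldh1a1 at 29.9 and 27.7 CPM (2.12, SE 0.13); Egr2, also higher, was a marker used to name them. Immune cells had 3 higher and 6 lower than endothelial cells (60.4% of all genes called), led by Aldh1a2 (14.0 and 15.8 against 0.24 and 0.25 CPM) and Aldh1a3 (0.42 and 0.27 against 5.47 and 6.51 CPM). Between Rxfp1-rich and Shox2-rich neurons Crabp1, which binds retinoic acid, was at 16.1 and 19.7 against 2.97 and 1.31 CPM (3.13, SE 0.51, adjusted p 9.04e-05), the single call among 5 genes tested, where 14.9% of all genes were called.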

How the data were processed

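The celiac and superior mesenteric ganglia of mice were measured in 2 single-cell libraries. The authors deposited raw UMI counts per gene and cell; the submitters' processing notes name Cell Ranger 6.1.2 and mm10, while the annotation release, strand and intron settings are not stated there. The Hox genes and all gene lists were chosen with earlier results of these data known. Minimums of 500 genes and 1000 UMIs and a limit of 20% of mitochondrial UMIs removed 1 barcode, and Scrublet doublets (4.48% and 5.15% of barcodes) were removed. Cells were clustered with scanpy 1.11.5 and leidenalg 0.10.2 on 3000 genes without Hox genes or other genes of the Hox clusters (30 components, 15 neighbours, resolution 1, and 0.8 for neuron-like cells), which gave classes named by markers; neurons are sub-clusters with a median UMI count at or above that of their library and not led by markers of other cells. Counts were summed per library and class and tested with edgeR 4.0.16 (quasi-likelihood, TMM scaling, filterByExpr, library as a term since all classes of a library come from the same cells in suspension, Benjamini-Hochberg adjustment over 18276 genes for 8 classes, or 11019 for the 2 neuron populations), with a threshold of 0.05. The fit of the classes had 7 residual degrees of freedom and that of the populations 1. The prior degrees of freedom, drawn from all genes, were 24.14 and 21.07, so the estimated spread rests mostly on other genes. In data simulated for neurons against satellite glia on 16915 genes, 85% of 2-fold and 98% of 4-fold changes among 200 changed genes were recovered, with 14 false calls. In the measured comparison 70.7% of genes were called, far more than were changed in the simulation, so these rates need not hold for it. Genes named with values are the up to 4 called Hox genes per direction of largest change with at least 10 UMIs in each library of the higher class, the 5 highest per class, and up to 3 per direction of each other list. Levels in single clusters, and the genes named beside these, were chosen after their values were seen. Alternatives were DESeq2 1.42.0, RLE size factors, no filter, no library term, doublets kept, a count split, thinning to 1500 UMIs, all neuron-like cells, single libraries and, chosen after seeing the data, leaving out glial clusters with close scores.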

Additional observations from a re-analysis of the deposited data

How the results depend on the processing

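Counts of Hox genes called moved by over 1.5 times under few alternatives. With each cell thinned to 1500 UMIs, which left 20 Hox genes tested in the classes, 12 were called in neurons against satellite glia, 4 in Schwann cells against satellite glia and 13 in neurons against fibroblasts. The shares of all genes called with thinned cells or without the library term are not given here. Whether calls of Hox genes moved more than those of all genes was therefore not tested. Between Rxfp1-rich and Shox2-rich neurons 1 was called with the count split, and 0 with DESeq2, which called 430 genes in all there, and 0 with thinned cells. Without the replicate block, that is without the library term, the counts were 19, 7, 21, 23, 15, 24, 20 and 2 in the order neurons and Schwann cells against satellite glia, satellite glia, neurons, mural and endothelial cells against fibroblasts, immune against endothelial cells and Rxfp1-rich against Shox2-rich neurons. In either library alone, the called genes keeping their direction were 19, 9, 21, 23, 15, 24, 20 and 2. These genes had been called from both libraries together, so this agreement was nearly fixed in advance and is no separate check. Of 48 changes of named genes, 22 moved by more than the spread of the libraries without replicate 1 and 32 without replicate 2. There a plain CPM ratio of 1 library replaced the fit. Of the 48 changes of genes named, 4 lost their call with DESeq2, 2 with the count split, 2 with doublets kept, 9 of 42 with thinned cells and 1 of 16 with all neuron-like cells, and no call was lost with RLE size factors, no filter or no block, nor among 22 with the close glial clusters left out; none of these changed direction. The summed Hox levels moved by more than the spread of the libraries: to 190.37 CPM in satellite glia, 288.35 in fibroblasts, 503.81 in mural, 34.557 in immune and 392.03 in perineurial cells with the count split; to 157.73 CPM in Schwann cells, 288.68 in fibroblasts, 453.46 in mural, 632.14 in endothelial, 52.081 in immune and 380.57 in perineurial cells with doublets kept; and to 194.18 CPM in satellite glia, 283.58 in fibroblasts, 512.32 in mural, 651.99 in endothelial, 34.441 in immune and 368.9 in perineurial cells with thinned cells. The cause of these moves was not tested. The 257 neurons limit what can be seen there: a gene with no UMI may still be at 0.517 CPM over both libraries.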
